A study of Mus musculus with 9 samples.

Results

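Transcripts of mitochondrial fatty acid oxidation and ketone body metabolism were examined in mouse livers with hepatocellular carcinoma (HCC) treated or not treated with the microRNA miR-22. The members were the 32 genes of a list written by step of the pathway, found by gene symbol among the 55401 genes of the deposited count table, and all 32 passed the filter on low counts that left 15717 genes for testing. RNA sequencing covered the livers of 9 female wild-type mice in groups of 3, called here healthy livers, untreated HCC and miR-22-treated HCC. The tumors came from hydrodynamic injection into the tail vein at 6 weeks of age, a method that mainly reaches hepatocytes, of plasmids for myristoylated AKT (EF1α promoter) and Nras-v12 (Caggs promoter) together with the SB11 transposase. The protocol in the labels lists a β-catenin plasmid as well, whereas the design text and the RNA sequencing methods call these tumors RAS/AKT-induced. At 1 week after the oncogenes the mice received adeno-associated virus of serotype 8 (AAV8), either blank (untreated HCC) or carrying miR-22 (miR-22-treated HCC), and livers were taken at 5 weeks, 4 weeks after the virus. The healthy livers had neither plasmid nor virus. For the healthy mice an age of 6 weeks is recorded too, without a time at which their livers were taken. Plasmid injection, tumor, virus and any difference in age at harvest therefore cannot be told apart in comparisons with healthy livers. The labels name the strain as C57BL/6 in one field and as FVB/N in the protocol, and the virus dose in the labels differs from that in the methods.

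Fatty acids enter the mitochondrion in stages. Long-chain acyl-CoA synthetases activate them, carnitine palmitoyltransferase 1 on the outer membrane, the carrier Slc25a20 and carnitine palmitoyltransferase 2 on the inner membrane move them into the matrix, and a cycle of dehydrogenation, hydration, second dehydrogenation and thiolysis shortens the chain and releases acetyl-CoA. Electrons from the acyl-CoA dehydrogenases pass through the electron transfer flavoprotein to ubiquinone. Hepatocytes turn much of the acetyl-CoA into ketone bodies for export and, being poor in the enzyme Oxct1, do not burn these themselves, and the nuclear receptor PPARα drives many of the genes in fasting.

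Totals ran from 16664659 to 23908392 counts per library, and values below are counts scaled to the TMM-normalized library size (CPM). In bulk liver, fewer hepatocytes and less RNA per hepatocyte cannot be told apart. The 6 hepatocyte markers, Alb and Cps1 among them, summed to 119994 to 124934 CPM in healthy livers, 48456 to 60249 CPM in untreated HCC and 72638 to 90231 CPM in miR-22-treated HCC, and all 6 were called lower in untreated HCC against healthy. Most of the sum was Alb, and in untreated HCC the single markers ranged from 11.7% (Serpina1c) to 57.6% (Ttr) of the healthy level. The 6 cholangiocyte markers summed to 29.5 to 42.1, 3340 to 6260 and 1568 to 2714 CPM in the same order, with 5 of 6 called higher in untreated HCC, nearly all of the sum from Spp1, and Krt19 at 1.04 to 6.61 CPM in the 9 livers. The 7 stellate cell and fibroblast markers reached 239% and 196% of the healthy sum in untreated and miR-22-treated HCC, with 4 called higher and 2 lower in untreated HCC, and the 7 macrophage markers 117% and 131%, with 2 higher and 1 lower. The 6 endothelial markers were at 64.4% and 82.8% (3 of 6 lower in untreated HCC) and the 7 lymphocyte markers at 128% and 115% (1 of 7 higher). Neutrophil markers summed to 0.315 to 1.70 CPM in healthy livers and 7.13 to 11.95 CPM in HCC livers, with Ly6g at 0 in 8 of the 9. Of the adipocyte markers, Fabp4 alone passed the filter, at 3.47 to 4.83 CPM in healthy livers and 13.4 to 24.5 CPM in HCC livers, with Adipoq under 0.5 CPM and Lep at or near 0. Striated muscle markers reached 67.6 CPM in healthy replicate 1, against 0.189 and 13.8 CPM in the other healthy livers and 0.143 to 0.560 CPM in HCC livers. The part of these cells in the results that follow was not tested. Mir22hg, the host transcript of miR-22, was 56.5 to 70.8 CPM in healthy livers, 13.3 to 20.6 CPM in untreated HCC and 27.9 to 32.7 CPM in miR-22-treated HCC, and was called in each comparison. Mature miR-22 was not measured by these libraries.

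In untreated HCC, most of the pathway was lower than in healthy livers. Of the 32 members, 18 were called lower, against 18.1% of all genes tested, and 3 were called higher (Oxct1, Acot2 and Ucp2), against 22.7% of all genes. A call required an adjusted p under 0.05 (edgeR quasi-likelihood test, Benjamini-Hochberg over all 15717 genes) and a fold change over 1.5. The median log2 fold change of the members was -0.73, and that of all genes was 0.01. By adjusted p alone, 22 members were lower and 5 higher, against 26.8% and 29.4% of all genes. The summed CPM of the members was 8851 to 9401 in healthy livers and 4979 to 6209 in untreated HCC, 60.8% of the healthy mean.

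That count rested on the composition factor in the scaling. With libraries scaled by total counts alone, which moved the median of all genes to 0.43, the calls were 6 lower (Acsl1, Cpt2, Acad10, Acad11, Acaa2 and Etfb) and 6 higher (Acsl4, Acsl5, Oxct1, Acot2, Pdk4 and Ucp2), against 9.49% and 38.1% of all genes, and the members' median was -0.31. Under both scalings the median of the members was below that of all genes. The same scaling left 1 member lower (Ucp2) and 1 higher (Acsl1) in miR-22-treated against untreated HCC (13.8% and 5.31% of all genes), with a members' median of 0.19 beside -0.23 for all genes, and 2 lower and 4 higher in miR-22-treated HCC against healthy livers (3.77% and 21.7%).

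miR-22-treated HCC lay between these groups without overlap for 18 of the 32 members, against 20% of all genes. Of these, 17 were lowest in untreated HCC (9.4% of all genes) and Ucp2 was highest there (10.6%). Against untreated HCC, 4 members were called higher (Acsl1, Acad10, Acad11 and Acaa2), against 8.32% of all genes, and 0 were called lower, against 5.47% of all genes. For the lower direction, the DESeq2 Wald test gave 0 calls too, and at an unadjusted p under 0.05 in edgeR 1 member, Ucp2, was lower. By adjusted p alone 18 members were higher and 1 was lower, against 13.6% and 10.4% of all genes, so most of these differences were smaller than 1.5-fold. Without untreated replicate 4 the count of 4 higher became 11, against 9.18% of all genes, and 1 member was called lower (Ucp2), against 5.83%. The members gained were Acadvl, Acadm, Hadh, Echs1, Etfb, Etfdh and Acat1. Without miR-22-treated replicate 4, 2 were called lower (Acot2 and Ucp2), against 7.11%. The members' median log2 fold change was 0.42, that of all genes 0.00, and the summed CPM of the members was 7001 to 7802, 80.1% of the healthy mean.

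Against healthy livers, miR-22-treated HCC had 4 members called lower (Acsl1, Cpt2, Acad10 and Etfb), against 7.05% of all genes, and 3 called higher (Oxct1, Pdk4 and Ucp2), against 16.9% of all genes. By adjusted p alone the counts were 16 lower and 5 higher, against 15.1% and 21.4%. For the 17 members lowest in untreated HCC, every untreated HCC liver lay below every miR-22-treated liver, and these below every healthy liver. The comparisons share the untreated or the healthy livers and are not independent of each other.

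**Figure D1:**
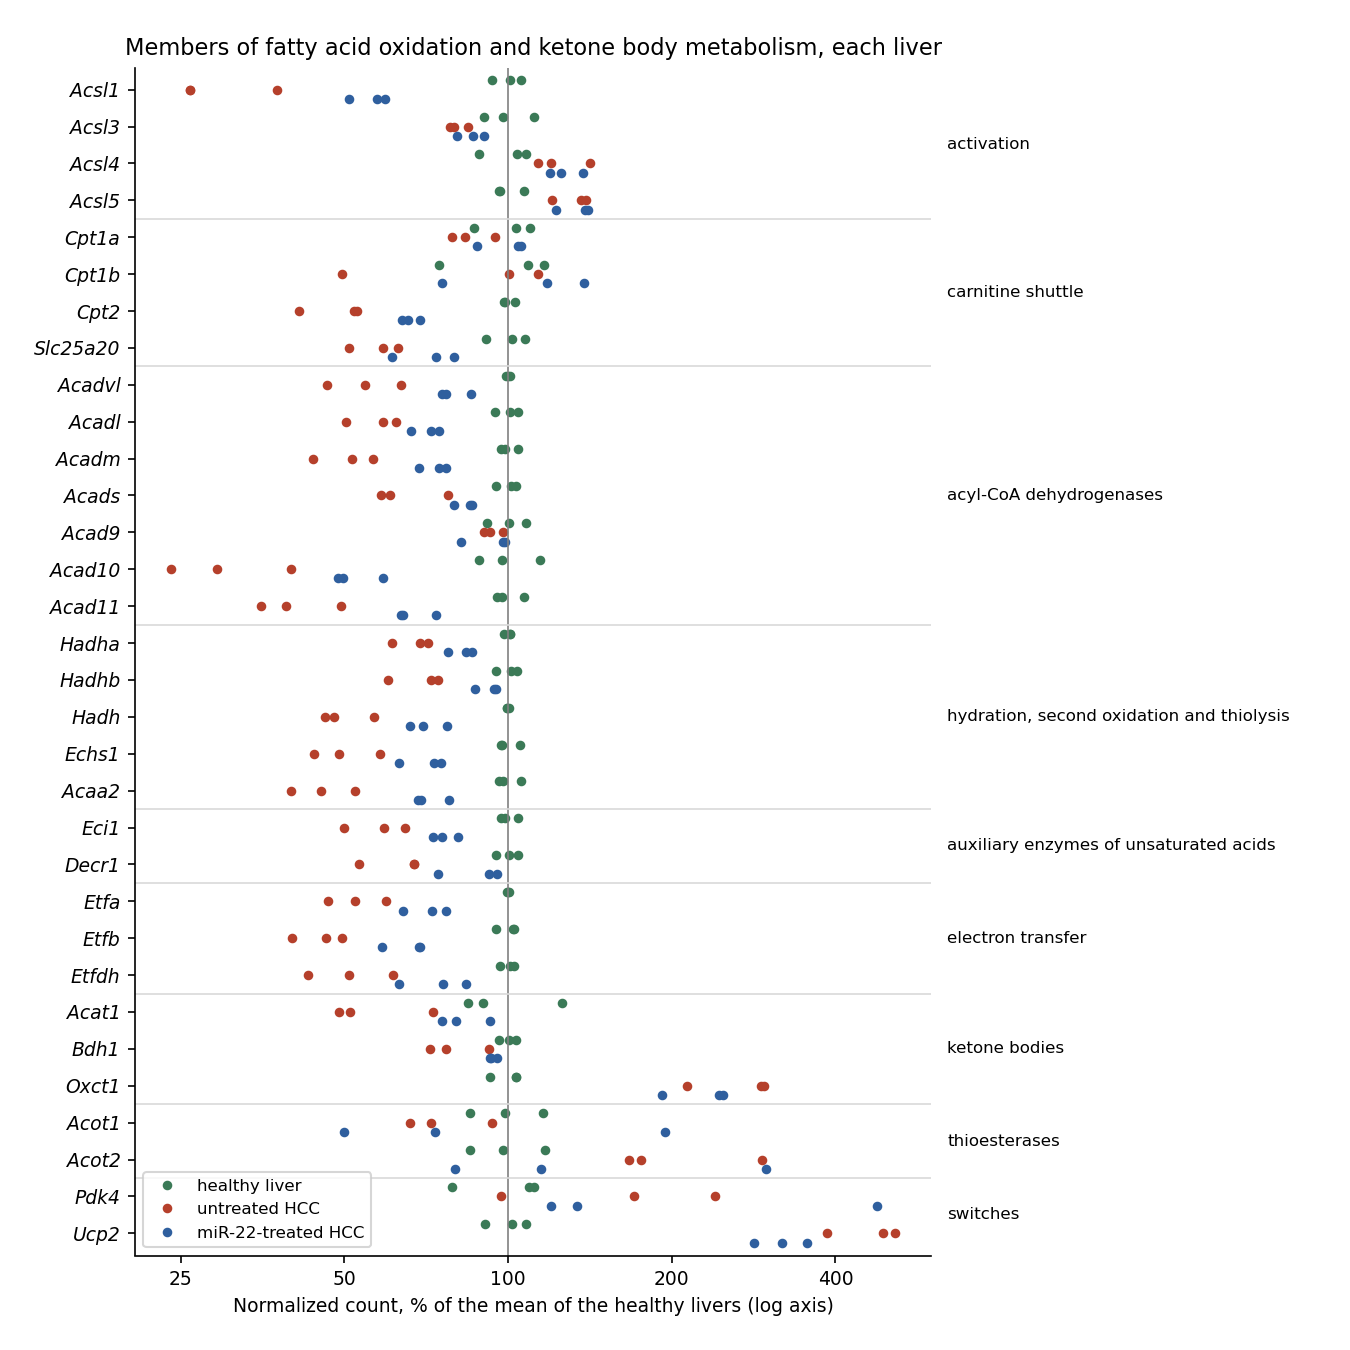
Level of each of the 32 members in each of the 9 livers, as a percentage of the mean of the healthy livers on a log axis, with genes grouped by step (1 point per liver, and the Acsl1 points of 2 untreated livers coincide). From Cpt2 to Acat1, apart from Acad9, the untreated HCC livers lie left of the healthy livers, and the miR-22-treated livers mostly lie between them (for Slc25a20 and others they overlap a neighboring group), while Oxct1 and Ucp2 lie to the right in every HCC liver.

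The step of activation held the member with the largest fall in untreated HCC, Acsl1, beside relatives that were not called. Acsl1 (ENSMUSG00000018796.13, chr8:46924063-46990145, GRCm39), the main long-chain acyl-CoA synthetase of hepatocytes, stood at 1045, 999.7 and 924 CPM in healthy livers, 258, 258 and 372 CPM in untreated HCC, and 569, 589 and 505 CPM in miR-22-treated HCC. The 3 groups did not overlap. The log2 fold change was -1.74 ± 0.15 (SE, adjusted p 1.08e-06, edgeR) in untreated HCC against healthy livers, which left 29.9% of the healthy level, and 0.91 ± 0.15 (adjusted p 0.00126, edgeR) with miR-22 against untreated HCC. At 56.0% of the healthy level, it was still lower in miR-22-treated HCC than in healthy livers (adjusted p 0.000848, edgeR).

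Acsl5, a synthetase of mitochondria and endoplasmic reticulum, went the other way within the threshold on fold change. Its levels were 505, 559 and 506 CPM in healthy livers, 729, 631 and 712 CPM in untreated HCC, and 642, 725 and 735 CPM in miR-22-treated HCC. Both HCC groups lay above the healthy livers without overlap, with log2 fold changes of 0.40 ± 0.11 (adjusted p 0.0075, edgeR) and 0.42 ± 0.11 (adjusted p 0.00975, edgeR), and the difference between them was 0.02 ± 0.11. Acsl4, which prefers arachidonic acid, differed from healthy livers by 0.32 ± 0.11 (untreated HCC) and 0.35 ± 0.11 (miR-22-treated HCC) on the log2 scale, and by 0.02 ± 0.11 between the HCC groups. Acsl3, a synthetase of lipid droplets and endoplasmic reticulum, was -0.31 ± 0.095 in untreated HCC, under the fold threshold.

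Compared per kb of transcript, Acsl1 was the most abundant synthetase in healthy livers and Acsl5 in both HCC groups. The ratio of Acsl5 to Acsl1, in counts per kb within a library, was 0.641, 0.743 and 0.728 in healthy livers, 3.76, 3.25 and 2.54 in untreated HCC, and 1.496, 1.64 and 1.93 in miR-22-treated HCC. The 3 groups were separate, and the miR-22-treated livers still had more Acsl5 than Acsl1. With 3 livers against 3, an exact two-sided permutation test cannot go below 0.1, so no p is given for the ratios. Coding sequences of Acsl1 and Acsl5 were identical at 63.5% of 2049 aligned bases, far from the similarity of the thioesterases described further on.

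**Figure D2:**
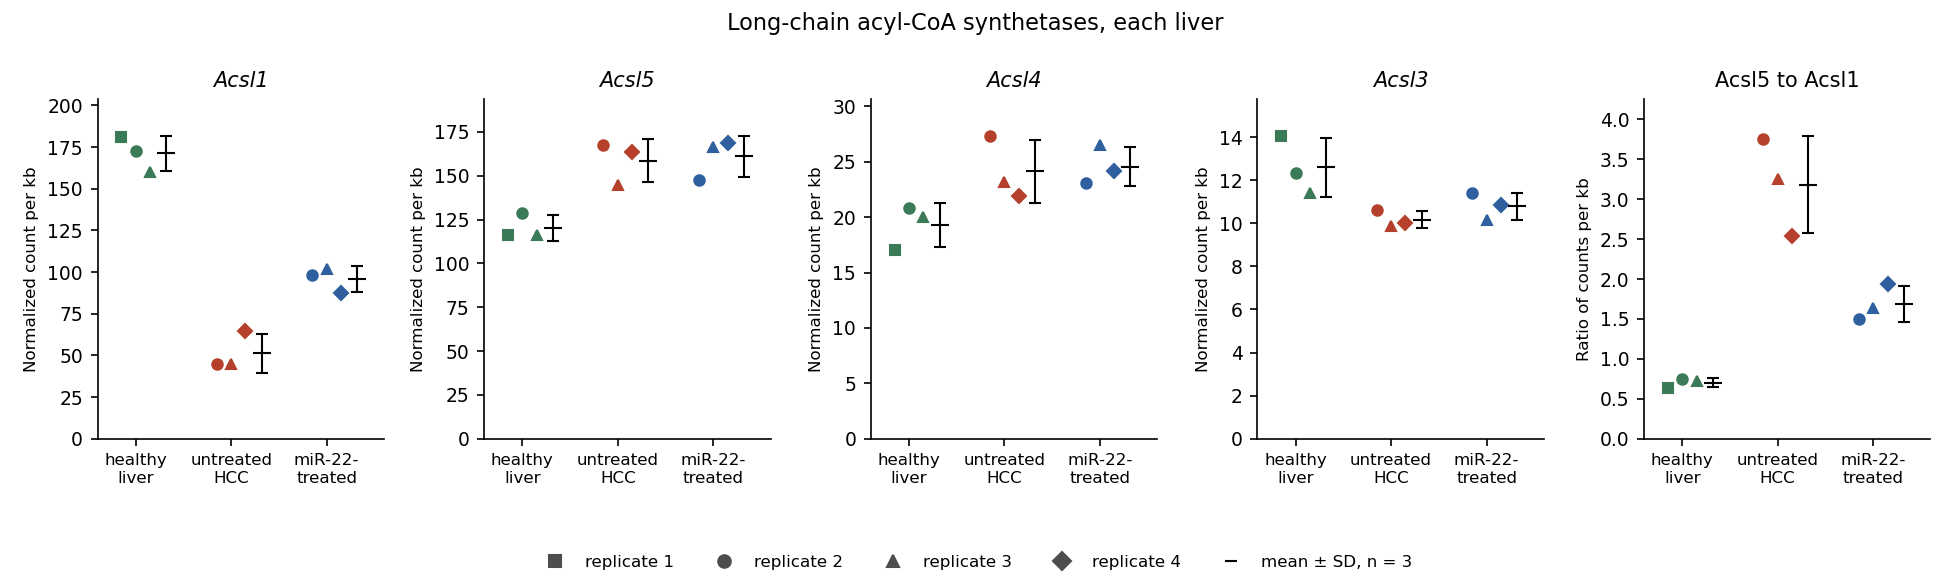
Levels of the 4 long-chain acyl-CoA synthetases in TMM-normalized CPM per kb of transcript, and the ratio of Acsl5 to Acsl1, by liver (symbols, replicates; black bars, mean ± SD, n = 3; axes start at 0). The ratio averages 0.704 in healthy livers, 3.18 in untreated HCC and 1.69 in miR-22-treated HCC.

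Of the carnitine shuttle, the inner enzyme and the carrier were lower in untreated HCC, and the outer enzyme did not pass the test. Cpt2, which rebuilds acyl-CoA in the matrix, was 156, 149 and 148 CPM in healthy livers, 78.7, 62.4 and 79.8 CPM in untreated HCC and 98.9, 104 and 96.6 CPM in miR-22-treated HCC. Its log2 fold change was -1.04 ± 0.101 (adjusted p 2.74e-06, edgeR) in untreated HCC, 0.44 ± 0.10 (adjusted p 0.00796, edgeR) with miR-22, under the fold threshold, and -0.60 ± 0.10 (adjusted p 0.000616, edgeR) in miR-22-treated HCC against healthy livers. The groups did not overlap in any of the 3 comparisons. The last call was lost without miR-22-treated replicate 4, where the log2 fold change was -0.57.

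Slc25a20, the carnitine-acylcarnitine carrier, fell by 0.80 ± 0.115 on the log2 scale (adjusted p 7.47e-05, edgeR) in untreated HCC. With miR-22 it was 0.31 ± 0.115 above untreated HCC (adjusted p 0.0681, edgeR), with overlapping groups. Cpt1a, the liver form of the outer enzyme and the step at which malonyl-CoA controls the pathway, was 404, 380 and 319 CPM in healthy livers, 307, 290 and 348 CPM in untreated HCC, and 323, 383 and 388 CPM in miR-22-treated HCC. All 3 groups overlapped, and the log2 fold changes of -0.22 ± 0.122, 0.21 ± 0.122 and -0.01 ± 0.122 did not pass the test. Cpt1b, the muscle form, had 8 to 23 counts per library and was called in no comparison. Its level was 0.566 CPM in healthy replicate 1, the liver with the most muscle transcripts, against 0.882 and 0.824 CPM in the other healthy livers. The ratio of Cpt1a to Cpt2 per kb was 0.875 ± 0.088 (SD, n = 3) in healthy livers, 1.55 ± 0.14 in untreated HCC and 1.32 ± 0.14 with miR-22.

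Among the 7 acyl-CoA dehydrogenases, which carry out the first oxidation, 6 were lower in untreated HCC and Acad9 was the exception. The enzymes for very long, long, medium and short chains all fell, with log2 fold changes of -0.87 ± 0.118 for Acadvl, -0.81 ± 0.103 for Acadl, -0.98 ± 0.112 for Acadm and -0.61 ± 0.11 for Acads. Acads, the least changed of these, lost its call under upper-quartile scaling, under the stricter filter and without untreated replicate 2 or 3, at log2 fold changes from -0.56 to -0.53. With total counts alone all 4 lost their calls, at -0.45 for Acadvl, -0.39 for Acadl, -0.56 for Acadm and -0.19 for Acads. Acadm, whose loss in people causes hypoketotic hypoglycemia, illustrates the spread, at 526, 489.6 and 499.7 CPM in healthy livers, 261, 222 and 286 CPM in untreated HCC and 347, 389 and 377 CPM in miR-22-treated HCC.

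The groups of all 4 were separate in each comparison. With miR-22 the 4 were higher than in untreated HCC by 0.53 ± 0.117 (Acadvl), 0.31 ± 0.102 (Acadl), 0.53 ± 0.111 (Acadm) and 0.35 ± 0.11 (Acads) on the log2 scale, each with an adjusted p under 0.05 in edgeR and each under the fold threshold. Acadvl and Acadm passed it without untreated replicate 4, at 0.65 and 0.62.

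Acad10 and Acad11, less studied members of the family, changed most. Acad10 (chr5:121759087-121799017, GRCm39) was 51.5, 60.5 and 46.8 CPM in healthy livers, 15.5, 12.7 and 21.1 CPM in untreated HCC and 26.3, 31.1 and 25.7 CPM in miR-22-treated HCC. It fell to 31.2% of the healthy level (log2 fold change -1.68 ± 0.167, adjusted p 3.22e-06, edgeR) and was higher with miR-22 by 0.75 ± 0.167 (adjusted p 0.007, edgeR), at 52.4% of the healthy level. The 3 groups were separate.

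Acad11 (chr9:103940576-104004924, GRCm39), which acts on long chains, was 568, 636 and 581 CPM in healthy livers, 232, 209 and 294 CPM in untreated HCC and 379, 438 and 382 CPM in miR-22-treated HCC. The log2 fold changes were -1.28 ± 0.132 (adjusted p 4.49e-06, edgeR) in untreated HCC and 0.71 ± 0.131 (adjusted p 0.00263, edgeR) with miR-22, again without overlap. Acad9, which is better known for the assembly of respiratory complex I than for oxidation, ran from 79.8 to 105 CPM over the 9 livers. Its groups overlapped in every comparison, with a log2 fold change of -0.09 ± 0.097 in untreated HCC.

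Of the 5 enzymes of hydration, second oxidation and thiolysis, 3 were called lower in untreated HCC, and the subunits of the trifunctional protein stayed under the fold threshold. Hadha and Hadhb, which form that complex on the inner membrane, serve long chains, while Echs1 (hydratase), Hadh (dehydrogenase) and Acaa2 (thiolase) serve shorter chains in the matrix. Hadh was 440 to 444 CPM in healthy livers, 203 to 250 CPM in untreated HCC and 292 to 341 CPM in miR-22-treated HCC, and Echs1 was 316 to 343, 143 to 189 and 205 to 245 CPM. These fell by 0.995 ± 0.108 (adjusted p 6.72e-06, edgeR) and 0.99 ± 0.118 (adjusted p 1.42e-05, edgeR) on the log2 scale.

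Acaa2, the most abundant member per kb in all 3 groups, stood at 1022, 1106 and 1006 CPM in healthy livers, 473, 417 and 546 CPM in untreated HCC and 723, 812 and 714 CPM in miR-22-treated HCC. Its log2 fold change of -1.13 ± 0.124 in untreated HCC (adjusted p 7.43e-06, edgeR) stood beside 0.65 ± 0.123 with miR-22 against untreated HCC (adjusted p 0.00293, edgeR). The groups were separate. The second call was lost without untreated replicate 3, at 0.55.

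Hadha and Hadhb lay close to the fold threshold. Hadha was 578, 578 and 563 CPM in healthy livers, 395, 350.3 and 408 CPM in untreated HCC and 445, 492 and 480.3 CPM in miR-22-treated HCC. Hadhb was 265, 259 and 243 CPM, then 190.1, 154 and 185 CPM, then 222, 243 and 241 CPM in the same order. The untreated livers lay below all others for both genes. In untreated HCC the log2 fold changes were -0.58 ± 0.101 (adjusted p 0.00034, edgeR) and -0.54 ± 0.102 (adjusted p 0.000656, edgeR), under the fold change of 1.5, and Hadha passed that threshold when any 1 of 4 libraries was left out, at log2 fold changes of -0.62 to -0.59, as did Hadhb without untreated replicate 2, at -0.59. With miR-22 the changes from untreated HCC were 0.30 ± 0.101 and 0.42 ± 0.102. The ratio of Hadha to Hadhb per kb was 1.13 ± 0.036 (SD, n = 3) in healthy livers, 1.10 ± 0.05 in untreated HCC and 1.01 ± 0.009 in miR-22-treated HCC.

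The genes of these subunits are neighbors on opposite strands and start away from each other, which is why the sequence between their RefSeq starts is shown. Their RefSeq start sites are 273 bases apart, while the gene models of GENCODE M39 overlap by 984 bases. Since the libraries were not strand-specific, reads from the overlap cannot be assigned to a strand. The 250 bases before the Hadhb start (chr5:30155003-30155252, plus strand, GRCm38.p6, from RefSeq) have a GC content of 58.8% and 2 matches to GGGCGG, the box bound by Sp1, searched on both strands and given in capitals. The box was chosen after the values were seen, and 35.4% of 27025 genes with a RefSeq promoter hold a match in this window.
Hadha-Hadhb: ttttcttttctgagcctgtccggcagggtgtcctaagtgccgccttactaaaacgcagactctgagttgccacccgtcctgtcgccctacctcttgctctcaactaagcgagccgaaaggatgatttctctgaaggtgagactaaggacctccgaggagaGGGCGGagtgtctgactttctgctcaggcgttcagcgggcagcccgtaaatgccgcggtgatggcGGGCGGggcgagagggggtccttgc

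Auxiliary enzymes and electron transfer followed the dehydrogenases. Eci1, the isomerase for unsaturated chains, and Decr1, the dienoyl-CoA reductase, fell by 0.79 ± 0.099 (adjusted p 2.26e-05, edgeR) and 0.68 ± 0.122 (adjusted p 0.000409, edgeR) on the log2 scale in untreated HCC, and were higher with miR-22 by 0.40 and 0.49, under the fold threshold. The call for Decr1 was lost without untreated replicate 3, at -0.57. Its change with miR-22 passed the fold threshold without miR-22-treated replicate 2, at 0.59. In miR-22-treated HCC, Decr1 was 165, 205 and 212 CPM against 211 to 231 CPM in healthy livers, and these groups overlapped.

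All 3 genes of electron transfer were called lower. Etfb, the β subunit of the flavoprotein, was 114, 106 and 114 CPM in healthy livers, 51.7, 44.7 and 55.3 CPM in untreated HCC and 65.5, 76.8 and 76.6 CPM in miR-22-treated HCC. It kept 45.4% of the healthy level in untreated HCC (log2 fold change -1.14 ± 0.0997, adjusted p 1.2e-06, edgeR) and 65.5% in miR-22-treated HCC (-0.61 ± 0.099, adjusted p 0.000484, edgeR). The groups did not overlap, and the second call was lost without miR-22-treated replicate 2, at -0.55. Etfa, the α subunit, fell by 0.92 ± 0.112 and Etfdh, the oxidoreductase that hands the electrons to ubiquinone, fell by 0.95 ± 0.138 in untreated HCC. With miR-22 the changes from untreated HCC were 0.43, 0.53 and 0.52 for Etfa, Etfb and Etfdh, each with an adjusted p under 0.05 in edgeR and under the fold threshold. Etfb passed that threshold without untreated replicate 4 or miR-22-treated replicate 2, at 0.60 in each fit. Etfdh passed it without untreated replicate 4, at 0.66, or without miR-22-treated replicate 4, at 0.62. As sums over a step, electron transfer kept 51.5% of the healthy CPM in untreated HCC, the dehydrogenases 52.3%, and hydration, second oxidation and thiolysis 53.9%. The auxiliary enzymes kept 61.1%, activation 69.4%, the ketone body genes 69.8% and the carnitine shuttle 72.0%, while the thioesterases stood at 119% and the switches, Pdk4 and Ucp2, at 387%. The sum of the hepatocyte markers, most of it Alb, was at 43.8%. In miR-22-treated HCC electron transfer was at 71.6%, the dehydrogenases at 73.6%, hydration, second oxidation and thiolysis at 75.8%, the auxiliary enzymes, activation, the carnitine shuttle and the ketone body genes at 84.1% to 89.0%, the thioesterases at 124%, the switches at 299% and the hepatocyte markers at 67.0%. The thioesterase percentages leaned on single livers. Their sums were 48.7, 31.3 and 31.8 CPM in untreated HCC and 18.5, 27.0 and 70.8 CPM in miR-22-treated HCC (replicates 2, 3 and 4), against a healthy mean of 31.2 CPM.

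**Figure D3:**
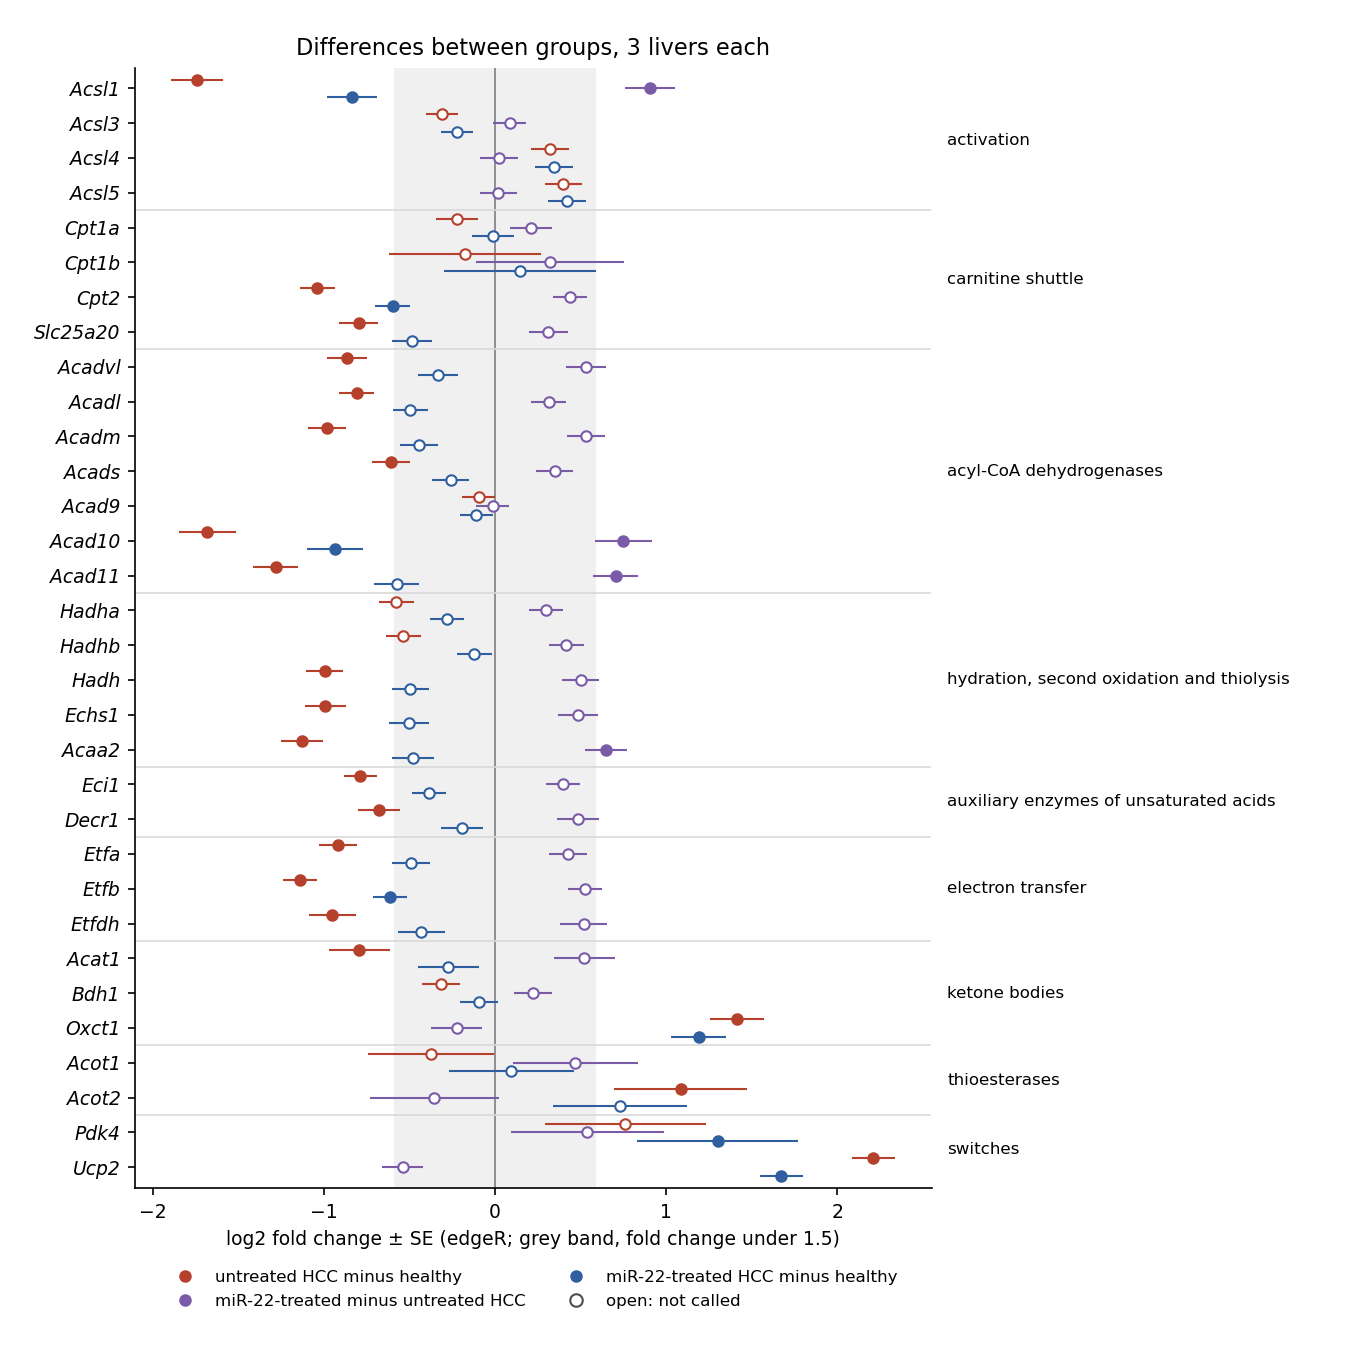
Log2 fold changes with SE from edgeR for the 32 members in 3 comparisons of 3 livers with 3 (filled points, adjusted p under 0.05 and fold change over 1.5; grey band, fold change under 1.5). In untreated HCC minus healthy, 18 filled points lie left of the band and 3 right of it, and in miR-22-treated minus untreated HCC 4 filled points lie right of it.

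Ketone body genes did not move as a block. Acat1, the mitochondrial thiolase that starts ketogenesis and ends ketone use, was 623, 446 and 419 CPM in healthy livers, 255, 242 and 362 CPM in untreated HCC and 375, 460.0 and 398 CPM in miR-22-treated HCC. Healthy replicate 1 was the highest liver. The log2 fold change was -0.79 ± 0.179 (adjusted p 0.00221, edgeR) in untreated HCC and 0.52 ± 0.179 (adjusted p 0.0516, edgeR) with miR-22. Without untreated replicate 4, Acat1 was called higher with miR-22, at 0.73 (adjusted p 0.00873, edgeR).

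Bdh1, which interconverts acetoacetate and β-hydroxybutyrate, was 423 to 454 CPM in healthy livers, 315 to 406 CPM in untreated HCC and 408 to 420 CPM in miR-22-treated HCC, and was called in no comparison (log2 fold change -0.32 ± 0.109 in untreated HCC). Oxct1 (ENSMUSG00000022186.14, chr15:4055638-4184828, GRCm39) encodes the transferase that lets peripheral tissues use ketone bodies and is low in normal liver. Its healthy level of 6.98, 6.24 and 6.98 CPM rose to 19.7, 19.9 and 14.3 CPM with untreated tumors, and the miR-22-treated livers had 16.7, 12.9 and 16.4 CPM. Every HCC liver was above every healthy liver, and the HCC groups overlapped. The log2 fold changes from healthy livers were 1.41 ± 0.16 (adjusted p 9.58e-06, edgeR) and 1.19 ± 0.162 (adjusted p 0.000128, edgeR), and the difference between the HCC groups was -0.22 ± 0.15 (adjusted p 0.313, edgeR). Even so, Oxct1 per kb stayed among the 4 lowest members in each group, and the cell type that held the transcript was not tested.

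Ucp2 (ENSMUSG00000033685.13, chr7:100142055-100151227, GRCm39), a carrier of the inner membrane that exports C4 metabolites, showed the largest rise of any member. It was 29.2, 24.6 and 27.5 CPM in healthy livers, 133, 139.7 and 105 CPM in untreated HCC and 76.9, 86.3 and 96.0 CPM in miR-22-treated HCC. The 3 groups were separate. The log2 fold change was 2.21 ± 0.127 (adjusted p 5.2e-08, edgeR), or 4.63-fold, in untreated HCC, -0.54 ± 0.12 (adjusted p 0.00698, edgeR) with miR-22, under the fold threshold, and 1.67 ± 0.126 (adjusted p 1.17e-06, edgeR) in miR-22-treated HCC against healthy livers. The change with miR-22 passed the fold threshold without untreated replicate 4, at -0.65, or without miR-22-treated replicate 4, at -0.62. Ucp2 is also abundant in macrophages, whose summed markers stood at 117% and 131% of the healthy level in untreated and miR-22-treated HCC. Within that sum Lyz2 was at 276% and 288% and Cd68 at 160% and 155%, both called higher in each HCC group, while Timd4 was called lower in untreated HCC and Clec4f, at 75.2% and 100.2%, was not called. The part of these cells in the result was not tested.

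For Pdk4 and the thioesterases, 1 miR-22-treated liver lay far above the rest of its group. Pdk4, the kinase that shuts off pyruvate dehydrogenase when fat is burned, was 10.7, 10.5 and 7.53 CPM in healthy livers and 23.0, 9.27 and 16.3 CPM in untreated HCC. With miR-22 it was 12.8 and 11.5 CPM in replicates 2 and 3 and 45.6 CPM in replicate 4. The call in miR-22-treated HCC against healthy livers (log2 fold change 1.30 ± 0.47, adjusted p 0.0462, edgeR) was lost without that liver, at 0.35 (adjusted p 0.424, edgeR), and also with the DESeq2 Wald test (adjusted p 0.0954), with its size factors in edgeR, and without each healthy replicate or untreated replicate 4. In untreated HCC the log2 fold change was 0.76 ± 0.47 (adjusted p 0.187, edgeR), with overlapping groups, and it was called higher without miR-22-treated replicate 4 (adjusted p 0.0265, edgeR), a liver that enters this comparison only through the shared fit, and also with only the 2 groups compared (adjusted p 0.0296, edgeR), without the filter on low counts and with total counts alone.

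Acot1 and Acot2, the cytosolic and the mitochondrial long-chain acyl-CoA thioesterases, lie 15608 bases apart on chr12 and are near-identical copies, with 95.2% identity over 1239 aligned coding bases. Reads shared by the pair may have been split between them by the authors' quantification, so their separate values are uncertain. Acot2 was 9.56, 11.4 and 8.30 CPM in healthy livers, 28.6, 17.1 and 16.3 CPM in untreated HCC and 7.78, 11.2 and 29.0 CPM in miR-22-treated HCC. Its rise in untreated HCC (log2 fold change 1.08 ± 0.39, adjusted p 0.0308, edgeR) was lost without untreated replicate 2 (0.78, adjusted p 0.14, edgeR), without each healthy replicate and with the DESeq2 Wald test (adjusted p 0.0664). Without miR-22-treated replicate 4, Acot2 was lower in miR-22-treated than in untreated HCC, at -1.12 (adjusted p 0.00733, edgeR), against -0.35 ± 0.375 with it.

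Acot1 was 24.96, 21.2 and 18.3 CPM in healthy livers, 20.1, 14.2 and 15.5 CPM in untreated HCC and 10.8, 15.8 and 41.8 CPM in miR-22-treated HCC, and was called in no comparison. Without miR-22-treated replicate 4 its change with miR-22 turned from 0.47 ± 0.366 to -0.32, and that against healthy livers from 0.10 to -0.70 (adjusted p 0.0214, edgeR). The ratio of Acot2 to Acot1 per kb was alike in the 3 miR-22-treated livers, with group means of 0.434 ± 0.073 (SD, n = 3) in healthy livers, 1.17 ± 0.18 in untreated HCC and 0.673 ± 0.014 in miR-22-treated HCC. The 3 groups were separate for this ratio.

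Over the 32 members, miR-22-treated replicate 4 lay more than 1.5 times above both other livers of its group for 3 members, namely Pdk4, Acot1 and Acot2. No other library did so for more than 1 member. The ω-hydroxylases Cyp4a10 and Cyp4a14, PPARα targets picked here after their values were seen, were high in the same liver, at 264 and 217 CPM against 78.6 to 92.5 and 30.3 to 35.7 CPM in the other miR-22-treated livers. Untreated replicate 3 had the lowest level of its group for 26 of the 32 members and untreated replicate 4 the highest for 23, and their hepatocyte marker sums were the lowest and the highest of the group, at 48456 and 60249 CPM. Among miR-22-treated livers, replicate 2 was lowest for 21 members with a marker sum of 82314 CPM. Replicate 4 had the lowest sum there, 72638 CPM, and was lowest for 8. Shares of all genes beside these counts are not reported here, and the cause of these orders was not tested.

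**Figure D4:**
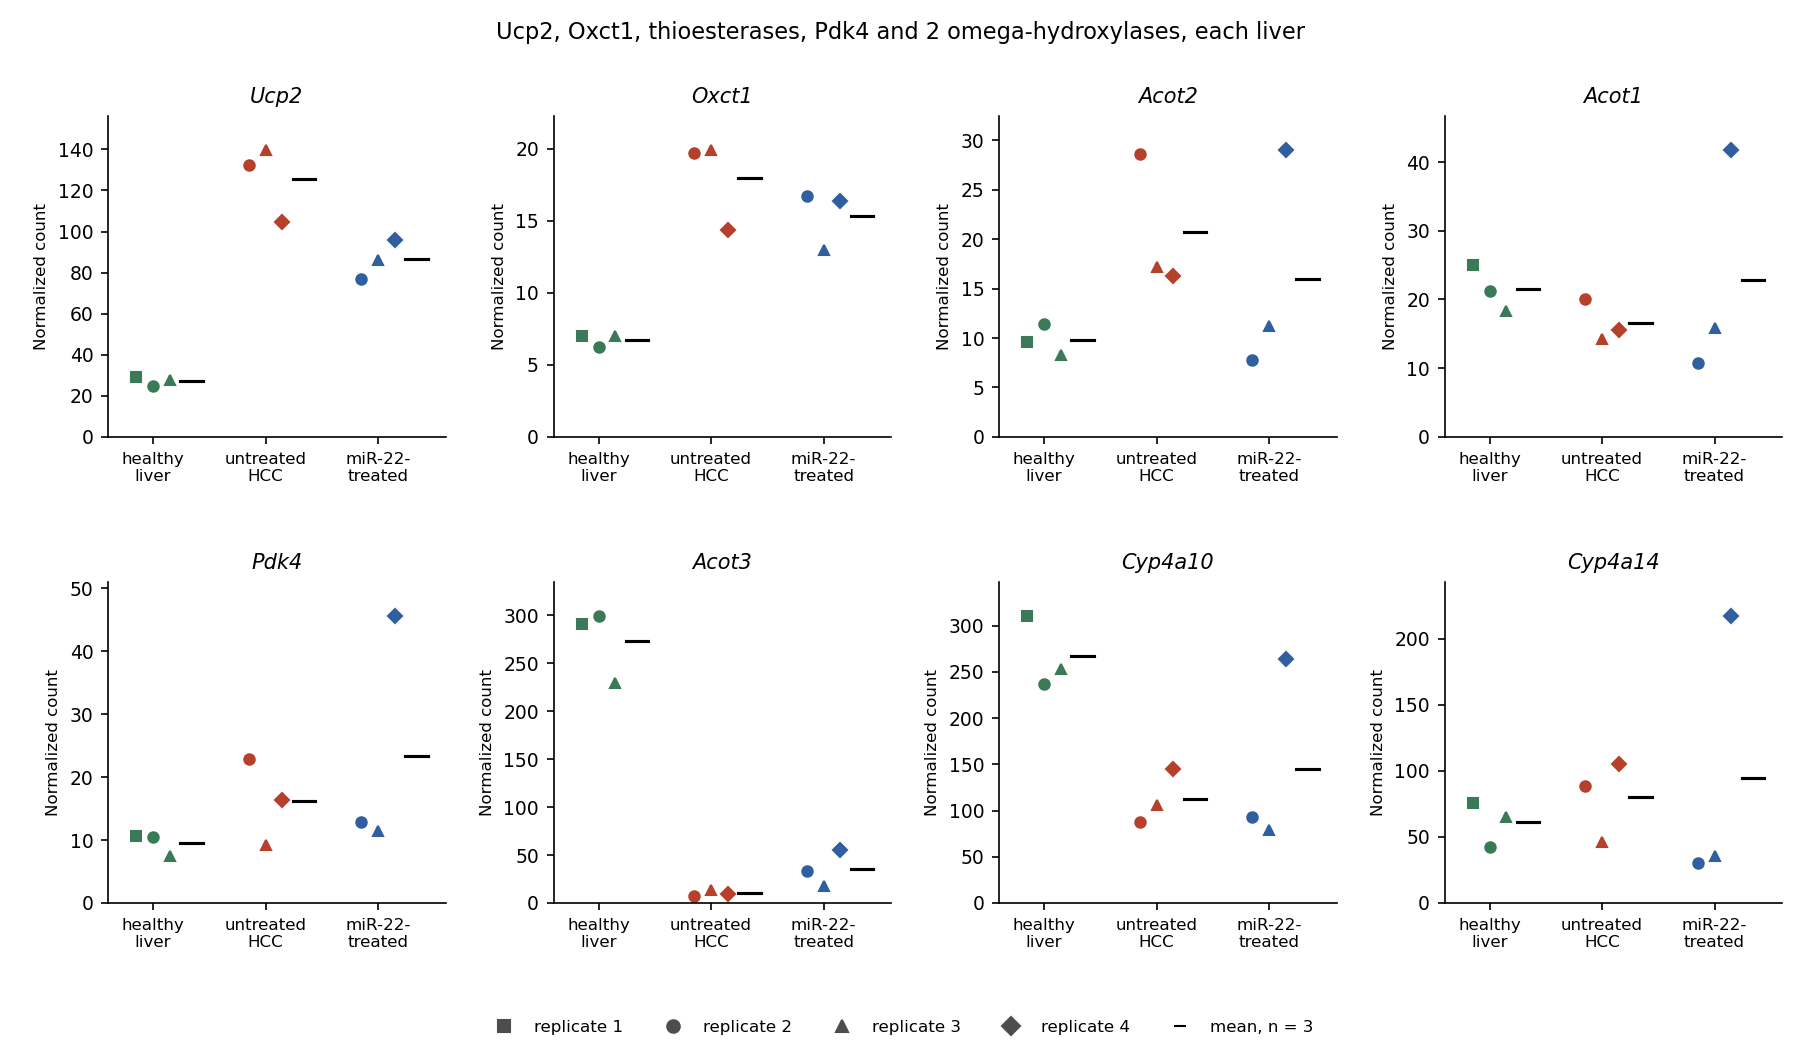
Levels by liver, in TMM-normalized CPM, of Ucp2, Oxct1, Acot2, Acot1 and Pdk4 and of 3 PPARα targets outside the list, Acot3, Cyp4a10 and Cyp4a14 (symbols, replicates; black lines, means of 3 livers; axes start at 0). miR-22-treated replicate 4 stands at 45.6 for Pdk4, 41.8 for Acot1 and 217 for Cyp4a14, above the other livers of its group.

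Genes that control the pathway were read from a list of 19. In untreated HCC 12 of the 19 were lower and 3 higher, against 18.1% and 22.7% of all genes, with a median log2 fold change of -0.88. With miR-22, 8 were higher and 1 lower than in untreated HCC, against 8.32% and 5.47% of all genes, with a median of 0.45. Ppara was 203, 221 and 175 CPM in healthy livers, 46.7, 46.7 and 65.0 CPM in untreated HCC, and 135, 172 and 123 CPM in miR-22-treated HCC. Without overlap between groups, it fell by 1.92 ± 0.16 on the log2 scale (adjusted p 8.29e-07, edgeR), to 26.5% of the healthy level, and rose by 1.44 ± 0.158 with miR-22 (adjusted p 0.000164, edgeR). Ppargc1a, its coactivator, fell by 0.88 ± 0.233 and was higher with miR-22 by 1.20 ± 0.232, at 22.5, 35.0 and 15.6 CPM, a range that took in the healthy 18.3 to 20.4 CPM. Sirt3, the mitochondrial deacetylase that activates enzymes of oxidation, fell by 1.68 ± 0.145 and rose by 0.99 ± 0.144 with miR-22.

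Fgf21, the hormone that PPARα induces in fasting and that stressed hepatocytes also release, rose from 0.385 to 1.95 CPM in healthy livers to 11.9 to 15.7 CPM in untreated HCC (log2 fold change 3.55 ± 0.422, adjusted p 1.44e-05, edgeR) and differed by -0.01 ± 0.326 between the HCC groups. With miR-22 it was 8.98 and 10.5 CPM in replicates 2 and 3, below every untreated liver, and 20.7 CPM in replicate 4, above them all. Pparg, the fat-storage relative of Ppara, rose by 1.53 ± 0.134 and differed by 0.02 ± 0.124 with miR-22. Lpin1 and Lpin2, which act both as phosphatidate phosphatases and as coactivators of PPARα, were the controls with the largest changes with miR-22. Lpin1 was 133 to 142 CPM in healthy livers, 54.5 to 58.5 CPM in untreated HCC and 171, 727 and 276 CPM in miR-22-treated HCC (log2 fold change 2.78 ± 0.389 from untreated HCC, adjusted p 0.000603, edgeR), above every healthy liver, and replicate 3 was the highest. Lpin2 was 290 to 362, 94.9 to 125 and 309, 609 and 479 CPM, with a rise of 2.14 ± 0.211 with miR-22 (adjusted p 7.82e-05, edgeR).

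**Figure D5:**
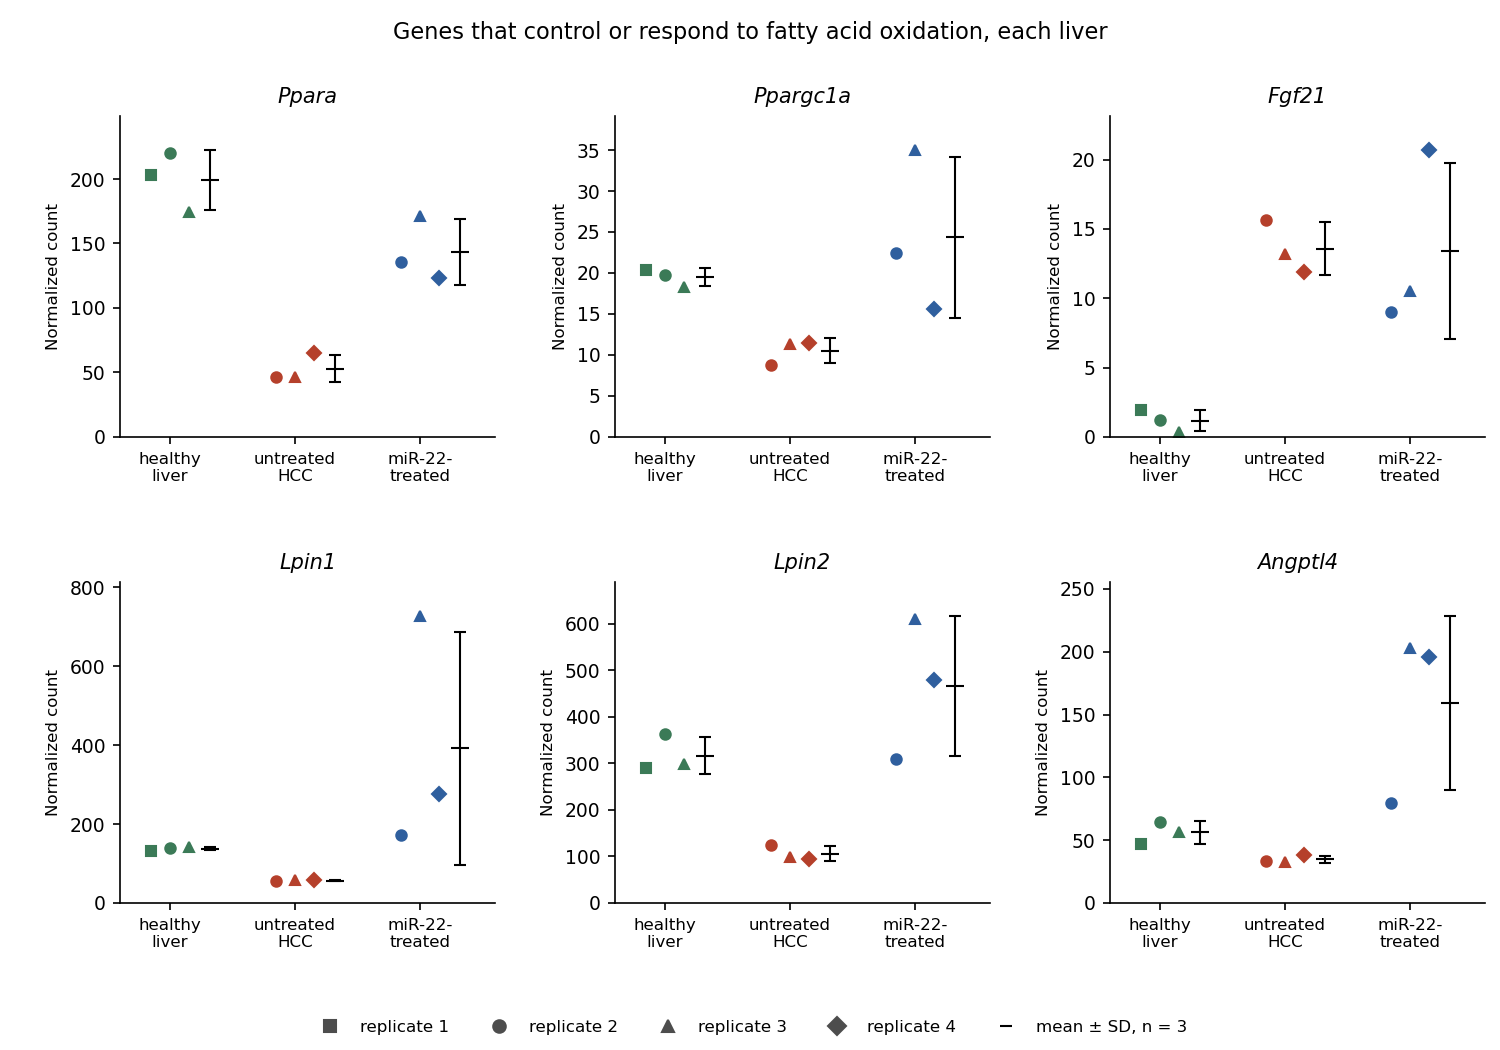
Levels by liver, in TMM-normalized CPM, of 6 genes that control or respond to fatty acid oxidation (symbols, replicates; black bars, mean ± SD, n = 3; axes start at 0). Ppara averages 52.8 in untreated HCC and 143 in miR-22-treated HCC, and Lpin1 reaches 727 in miR-22-treated replicate 3.

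Among 31 tested genes of other mitochondrial fatty acid and ketone metabolism, 21 were lower and 6 higher in untreated HCC (18.1% and 22.7% of all genes; median log2 fold change -0.85), and 10 were higher and 2 lower with miR-22 (8.32% and 5.47%). Acsm1, Acsm3 and Acsm5, which activate medium-chain acids, fell by 1.99, 1.71 and 1.74 and rose with miR-22 by 1.23, 1.03 and 1.25 on the log2 scale. The carrier Slc16a6, which exports β-hydroxybutyrate, rose by 2.10 ± 0.149 and fell by 0.85 ± 0.14 with miR-22 (adjusted p 0.00129, edgeR), and the thioesterase Acot9 rose by 2.01 ± 0.145.

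Of the 22 PPARα targets outside the mitochondrion, 12 were lower and 5 higher in untreated HCC, against 18.1% and 22.7% of all genes, and 9 were higher with miR-22, against 8.32%. The share called higher in untreated HCC was that of all genes. Acot3, a peroxisomal thioesterase and relative of Acot1, was 291, 299 and 229 CPM in healthy livers and 7.08, 13.4 and 9.67 CPM in untreated HCC, a log2 fold change of -4.76 ± 0.358, and its neighbor Acot4 fell by 2.40 ± 0.16. Both lie in the gene cluster of Acot1 and Acot2, and reads shared with relatives were not measured for them. Slc27a2, which activates very long chains, fell by 1.66 ± 0.162 and rose by 0.97 ± 0.16 with miR-22. Cd36, the fatty acid importer, instead rose by 2.73 ± 0.163 and differed by -0.03 ± 0.15 between the HCC groups. Angptl4, an inhibitor of lipoprotein lipase, was 33.3, 32.9 and 38.0 CPM in untreated HCC and 79.2, 203 and 195 CPM in miR-22-treated HCC (2.20 ± 0.273, adjusted p 0.00031, edgeR), above the 47.1 to 64.8 CPM of healthy livers.

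Of 12 tested relatives of Pdk4 and Ucp2, 4 were lower and 3 higher in untreated HCC (18.1% and 22.7% of all genes), and 4 were higher with miR-22 (8.32%). Pdk1 and Pdk2, kinases of the same target as Pdk4, fell by 1.87 ± 0.144 and 1.19 ± 0.118, and Pdp2, the phosphatase that reverses them, fell by 1.78 ± 0.106. With miR-22 these rose by 0.80, 0.66 and 0.99. Slc25a30, a carrier related to Ucp2, rose by 2.50 ± 0.204 in untreated HCC and differed by -0.43 ± 0.19 with miR-22 (adjusted p 0.119, edgeR).

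Because miR-22 was the treatment, matches to its seed were looked up in the members. The mature miR-22-3p (RefSeq, chr11:75463772-75463793, plus strand, GRCm38.p6) is given with its seed, bases 2 to 8, in capitals.
miR-22-3p: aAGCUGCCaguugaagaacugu

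A match to the seed, GGCAGCT on the sense strand, was present in the 3′ UTR of 6 of the 32 members (18.8%), against 2924 of 20792 genes with a 3′ UTR in GENCODE M39 (14.1%). The 6 sites are shown on the strand of the transcript with the match in capitals, so that the levels can be read beside them.
Acad9 (chr3:36145394-36145417, plus strand): aactaagatttgGGCAGCTattcc
Acot1 (chr12:84065083-84065106, plus strand): taacacaagacaGGCAGCTaagag
Cpt1a (chr19:3437025-3437048, plus strand): taacaagacagaGGCAGCTttagc
Echs1 (chr7:139686208-139686224, minus strand): gaactGGCAGCTatacc
Hadha (chr5:30324316-30324339, minus strand): tgggagatgtcgGGCAGCTgcttt
Ucp2 (chr7:100149819-100149842, plus strand): gggggattgtctGGCAGCTgtgaa

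All positions are on GRCm39. With miR-22, the log2 fold changes of these 6 members against untreated HCC were -0.01 for Acad9, 0.47 for Acot1, 0.21 for Cpt1a, 0.49 for Echs1, 0.30 for Hadha and -0.54 for Ucp2. Ucp2 alone was lower by adjusted p, and Echs1 and Hadha were higher by adjusted p. The letters describe the windows and say nothing of binding.

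Promoters were read for the 27 members with a RefSeq promoter, from 250 bases before to 50 after the start, on both strands. A pair of AGGNCA copies with 1 base between them, the repeat that PPARα binds, was found in 0 of 27 members and 0.451% of 27025 genes, and TCAAGGTCA, the extended half-site of estrogen-related receptors, in 0 and 0.466%. With matches this rare over all genes, 0 of 27 cannot tell the members from other genes. Looser matches and sequence outside the window were not searched. TGCGCATGC, the element of NRF1, was found in 2 members (7.41%) and 1.72% of all genes. Both genes were called lower in untreated HCC, Acadm with its match 158 bases before the start and Etfdh with its match 126 bases before, and they are shown on the strand of the gene with the match in capitals (GRCm38.p6).
Acadm (chr3:153944783-153944811, minus strand): ggagcaggacGCATGCGCAgagggccttc
Etfdh (chr3:79628875-79628903, minus strand): cttctagggcGCATGCGCAcacgcgagag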

How the data were processed

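RNA sequencing of whole liver was analysed for 9 mice, 3 per group. The libraries were not strand-specific. According to the methods, the authors quantified reads with Salmon and summed them per gene with tximport, and the submitters' processing notes name FastQC 0.11.7, DESeq2 1.18 and GRCm39. The deposited gene counts are whole numbers without normalization by the authors, for 55401 genes. A second deposited table, of normalized values, was not used. Salmon estimates can split reads between near copies, which touches Acot1 to Acot4.

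Testing used edgeR 4.0.16 under R 4.3.3 (TMM, filterByExpr, two-sided quasi-likelihood F test, all 9 libraries in a single fit, no covariates). A gene was called at a Benjamini-Hochberg adjusted p under 0.05 over 15717 genes and a fold change over 1.5. CPM are counts scaled to the TMM-normalized library size, errors are SD over 3 livers, and ± after a log2 fold change is its SE. Levels per kb used the canonical GENCODE M39 transcript. Replicates differed by more than sampling noise (chi-square per degree of freedom 6.59 to 31.3). The common dispersion was 0.0206. Libraries were counted as separate livers per the labels. The p-values judge differences between groups against the spread between these livers. The script was tested on simulated data.

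The members, the 4 companion lists (87 genes) and the 9 marker lists (55 genes) were chosen with earlier results of these data known. Named companion genes are Ppara, Ppargc1a and Fgf21, plus the 3 with the smallest p per list in untreated HCC against healthy livers and in miR-22-treated against untreated HCC. Cyp4a10 and Cyp4a14 were added after their values were seen. Alternatives were DESeq2 1.42.0, its size factors, upper-quartile factors, total counts alone, an unfiltered fit (29621 genes), a stricter minimum of 10 in each library (12836 genes), 2 groups per fit, the replicate number as a block, no fold threshold, and each liver left out in turn. Sequences came from RefSeq (GRCm38.p6) and from GRCm39 with GENCODE M39. Figures were drawn with matplotlib 3.10.9. Protein sequences were not used here, and some companion genes are not reported here.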

Additional observations from a re-analysis of the deposited data

How the results depend on the processing

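Under both DESeq2 settings, upper-quartile factors, an unfiltered fit and fits of 2 groups, the member counts stayed within 1.5 times those reported. Scaling by total counts alone gave 6 lower and 6 higher members in untreated HCC against healthy livers, 1 lower and 1 higher in miR-22-treated against untreated HCC, and 2 lower in miR-22-treated HCC against healthy livers. Without the fold threshold there were 5 higher in the first comparison, 1 lower and 18 higher in the second, and 16 lower and 5 higher in the third. A minimum of 10 counts in each library, which removed Cpt1b, gave 2 of 31 members lower in the third (without Cpt2 and Etfb), beside 922 of 12836 genes. Leaving out each liver gave 16 to 19 lower and 2 to 4 higher in the first, 0 to 2 lower and 3 to 11 higher in the second, and 3 to 5 lower and 2 to 4 higher in the third. In the second, 11 higher without untreated replicate 4 stood beside 9.18% of all genes, and 2 lower without miR-22-treated replicate 4 beside 7.11%. Shares of all genes for the other left-out livers are not reported here. The cause of these shifts was not tested.

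Signs turned mostly for members near 0. With total counts alone, untreated HCC against healthy livers gave log2 fold changes of 0.11 for Acsl3, 0.20 for Cpt1a, 0.24 for Cpt1b, 0.33 for Acad9, 0.10 for Bdh1 and 0.047 for Acot1. The same scaling gave -0.15 for Acsl3, -0.21 for Acsl4, -0.21 for Acsl5, -0.023 for Cpt1a and -0.010 for Bdh1 in miR-22-treated against untreated HCC, and 0.18 for Cpt1a, 0.075 for Acad9, 0.066 for Hadhb and 0.094 for Bdh1 in miR-22-treated HCC against healthy livers. For miR-22-treated against untreated HCC, Acsl4 was -0.0020 with the DESeq2 Wald test, -0.0020 with DESeq2 size factors and -0.015 with upper-quartile factors, and Acsl5 was -0.0052, -0.0052 and -0.018. With a minimum of 10 counts Cpt1a was 0.018 in miR-22-treated HCC against healthy livers. With single livers left out, Cpt1b ran from -0.41 to 0.10 in untreated HCC against healthy livers. In miR-22-treated against untreated HCC, Acsl4 ran from -0.041 to 0.12, Acsl5 from -0.043 to 0.078, Acad9 from -0.063 to 0.069, Acot1 from -0.32 to 0.80 and Pdk4 from -0.41 to 0.87. In miR-22-treated HCC against healthy livers, Cpt1a ran from -0.12 to 0.057, Cpt1b from -0.059 to 0.34, Acot1 from -0.70 to 0.42 and Acot2 from -0.039 to 1.05.

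Whether the replicate numbers pair the livers was not settled. Same-numbered untreated and miR-22-treated livers deviated from their group means with correlations of -0.14, -0.19 and -0.28, and pairs with different numbers with -0.0074 to 0.19. Healthy livers correlated with HCC livers of the same number at -0.041 to 0.043. Deviations of 3 livers from their own mean cancel out, so these correlations depend on each other and cannot decide the question. With the number as a block the counts were 19 lower and 2 higher, 0 lower and 4 higher, and 5 lower and 2 higher in the 3 comparisons, beside 2595 and 3268, 618 and 1127, and 873 and 2171 of all 15717 genes. Under the block Acot2 (0.91, adjusted p 0.147, edgeR) was not called in the first and Pdk4 (0.81, adjusted p 0.231, edgeR) was not called in the third, while Hadha in the first (-0.60) and Acad11 in the third (-0.66) were called. With the block, miR-22-treated HCC against healthy livers gave 0.0027 for Cpt1a, -0.27 for Cpt1b and -0.22 for Acot1. Depth limits Cpt1b most, at 8 to 23 counts per library.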
